A study of Sus scrofa with 4 samples.

Results

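The metalloproteinase system of porcine cells was followed through reprogramming. The genes described are the rows of the count table whose pig symbol is MMP, ADAM, ADAMTS, ADAMTSL or TIMP followed directly by a number. This rule found 66 of 25880 genes: 19 matrix metalloproteinases (MMPs), 19 ADAMs, 19 ADAMTS proteases, 5 ADAMTS-like genes and 4 tissue inhibitors (TIMPs). Of these, 65 were named by their Ensembl identifier and 1, TIMP2, by its position on the Sscrofa11.1 assembly. RNA sequencing covered 3 steps of reprogramming, all from ear skin fibroblasts (N01F) of a single post-neonatal pig. The fibroblasts (n = 1, passage 1) were the starting cells. Dome-shaped colonies, termed induced neural stem cell-like cells or iNSLCs (n = 1, passage 1), emerged next, in a naive-state medium, after transfection with episomal vectors. Those vectors carried human OCT4, SOX2, KLF4, L-MYC, LIN28, KLF2, NANOG, KDM4D and GLIS1, together with a dominant-negative mouse Trp53. iPSCs, induced pluripotent cells sampled as 2 clones at passage 3, arose when passaged colony cells were moved to an embryonic stem cell medium supplemented with TGF-β1, activin A and IWP2, which blocks WNT secretion. All 4 libraries therefore share 1 animal, and every iPSC value rests on 2 clones.

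MMPs are zinc proteases that cut collagens and other proteins of the extracellular matrix, and most are secreted as inactive precursors. ADAMs sit in the plasma membrane and release the outer parts of receptors and growth factor precursors, while the secreted ADAMTS proteases trim procollagens and cut the large proteoglycans. TIMPs plug the active site of these enzymes, and in skin the fibroblast is a main source of MMPs, TIMPs and their collagen substrates.

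Levels are given as CPM (counts per 1000000 of the library) after TMM scaling, which sets the bulk of genes equal between libraries. Library totals ran from 21640374 to 62421521 counts, so that 3 counts, the floor used for folds, stood for 0.0648 to 0.127 CPM. iPSCs were tested against fibroblasts and against iNSLCs with the quasi-likelihood F test of edgeR (two-sided, adjusted p under 0.05 over 15739 genes). Only the clones gave a measure of spread (1 residual degree of freedom), which stood in for that of the lone libraries. P-values therefore rest on the spread between the clones alone, with no measure of the spread between animals. No p-value was possible between the iNSLC and fibroblast libraries or between the clones. TMM set the iPSC over fibroblast ratios 0.57 lower on the log2 scale than total counts did, and the iPSC over iNSLC ratios 0.01 higher. Labels were checked against markers. The 10 measured fibroblast markers summed to 139530 CPM in fibroblasts, 54490 CPM in iNSLCs and 888 and 922 CPM in the iPSC clones. All 10 were called lower in iPSCs than in either other group, and their part in the results that follow was not tested. The 5 measured pluripotency markers summed to 4.12 CPM in fibroblasts, 678 CPM in iNSLCs and 1680.0 and 1452 CPM in the iPSC clones. In iNSLCs they were CDH1 (378 CPM), LIN28A (202), EPCAM (58.1), POU5F1, the OCT4 gene (40.5), and NANOG (0.209). NANOG had 52.4 and 40.9 CPM in the clones. Whether transcripts of the vectors added to such levels was not tested. Of 7 measured neural markers, NES, MSI1, FABP7 and DCX were at least 4-fold above fibroblasts in the iNSLC library, at over 10 CPM. PAX6 had 14.6 CPM in iNSLCs against 21.5 CPM in fibroblasts. Against iNSLCs, 5 of the 7 were called lower in iPSCs, where 14.2% of all tested genes were. NES and PAX6 were not called, and NES had 461 and 505 CPM in the clones against 384 CPM in iNSLCs.

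Across the members, the main change on the way to iPSCs was a loss of fibroblast-rich enzymes and inhibitors. Of 66 members, 59 passed the filter on low counts and were tested. Against fibroblasts, 30 members (50.8% of those tested) fell in iPSCs, where 28.2% of all tested genes fell. A further 15 members (25.4%) rose, against 29.6% of all genes. The median log2 ratio was -0.72 over the tested members and 0.11 over all tested genes. Against iNSLCs, 23 members (39.0%) fell in iPSCs, where 14.2% of all genes fell, and 7 (11.9%) rose, where 13.2% of all genes rose. That median was -0.27 over the tested members. Every called member had the same direction in each clone alone, 45 of 45 against fibroblasts and 30 of 30 against iNSLCs. The calls used the mean and spread of these same clones, so this outcome was nearly fixed by the calling and adds no support. With total counts in place of TMM, 26 members fell and 20 rose against fibroblasts, and the median was -0.15. With that scaling the median over all tested genes was 0.68.

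**Figure D1:**
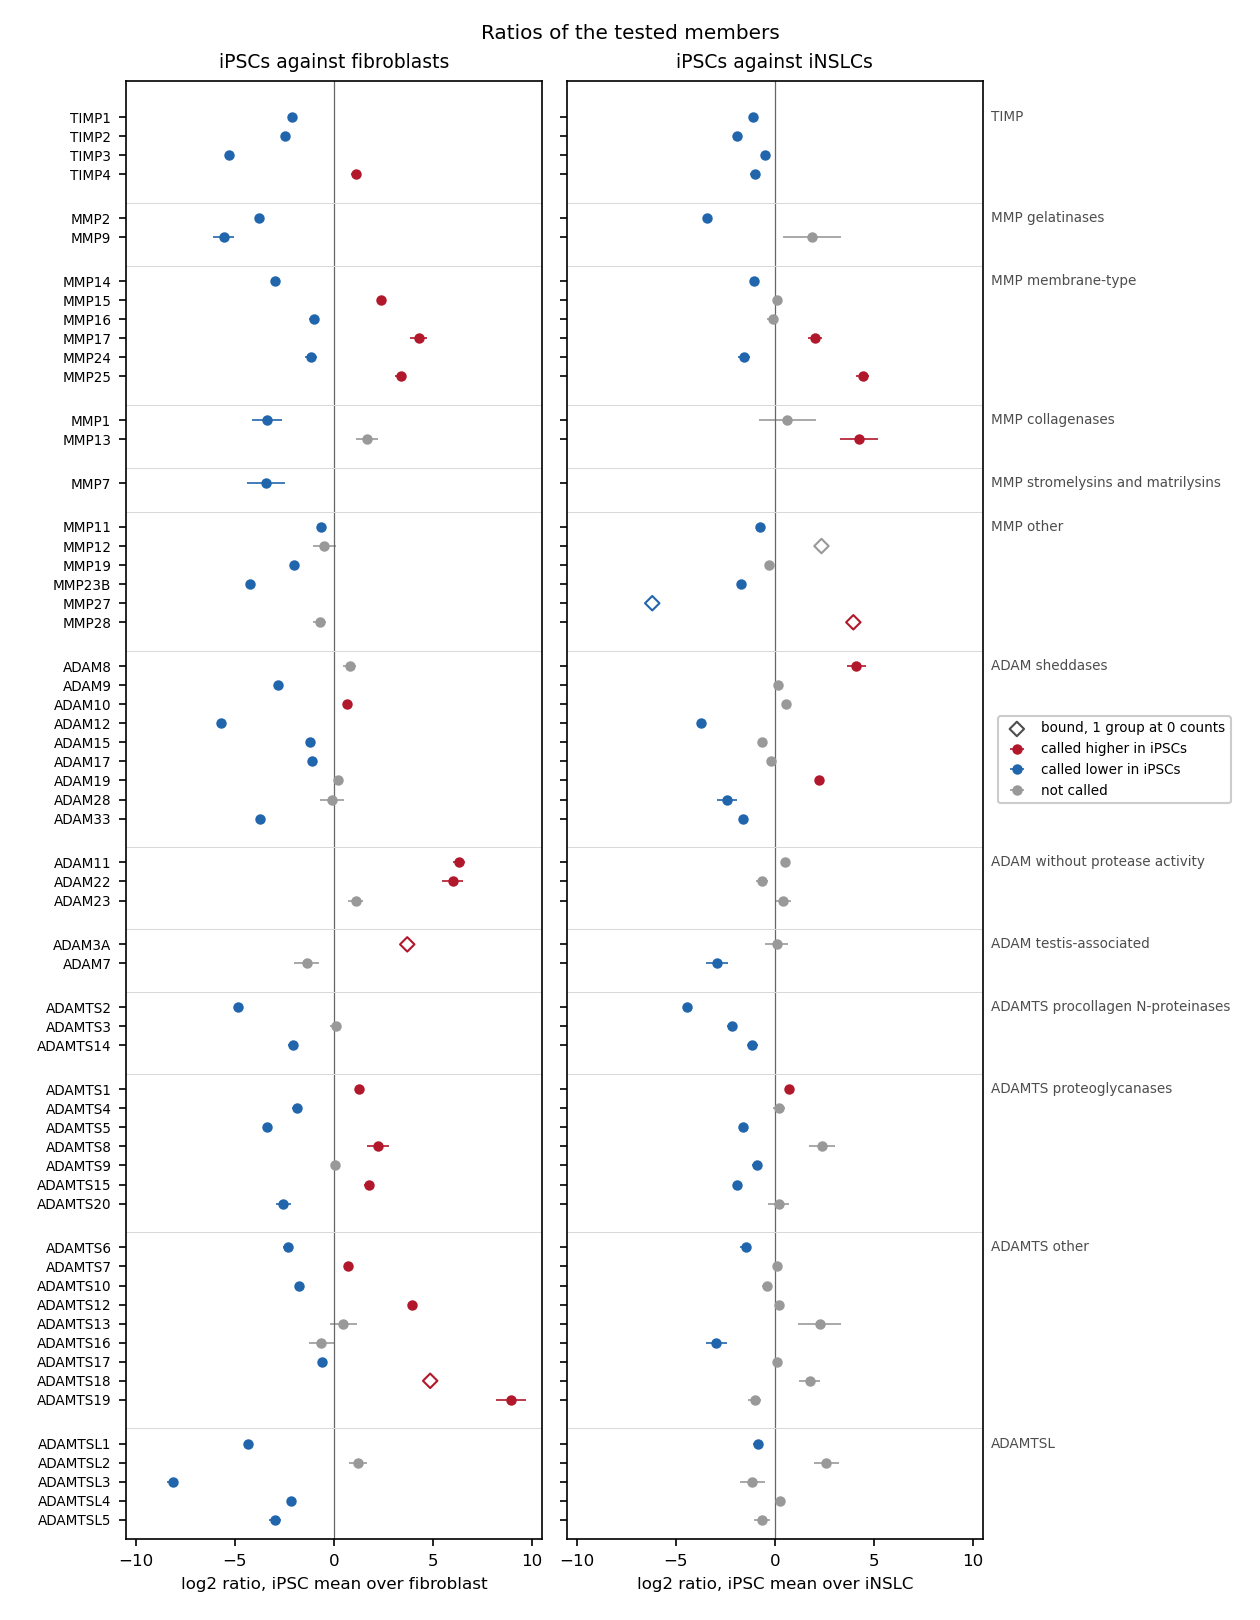
Log2 ratio of iPSCs over fibroblasts (left) and over iNSLCs (right) for the tested members, by role; points are the edgeR estimates, bars 1 standard error, and open diamonds lower limits of the change where a group had 0 counts (MMP27 against fibroblasts and MMP7 against iNSLCs, at the floor in both groups, are not drawn). Points left of the line were lower in iPSCs; of 59 members, 30 were called lower and 15 higher against fibroblasts, and 23 lower and 7 higher against iNSLCs.

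MMPs and TIMPs carried most of a fall in the summed share of these genes. All 66 took 0.753% of all counts in fibroblasts, 0.448% in iNSLCs and 0.193% and 0.203% in the iPSC clones. The MMPs alone took 0.305% in fibroblasts, 0.24% in iNSLCs and 0.0565% and 0.0662% in the clones. The ADAMTSL share also fell, from 0.0184% in fibroblasts to 0.00259% in iNSLCs and 0.00217% and 0.00206% in the clones. The ADAMTS and ADAM families did not follow throughout. The ADAMTS share was 0.0449% in fibroblasts, 0.0634% in iNSLCs and 0.0348% and 0.0383% in the clones. The ADAM share was 0.0966% in fibroblasts, 0.0538% in iNSLCs and 0.0688% and 0.0673% in the clones. Levels of different genes were compared per kilobase of exon. On that scale the fibroblast list was led by TIMP3 (616 CPM per kb), MMP2 (523), MMP14 (439) and TIMP2 (247). In iNSLCs MMP2 led with 405 CPM per kb, ahead of TIMP2 (168) and MMP14 (112), and TIMP3 stood sixth with 22.4. In both iPSC clones MMP14 and TIMP2 came first, with 52.6 and 47.0 CPM per kb in clone 1 and 57.1 and 42.2 CPM per kb in clone 2. ADAM10 came next in clone 1 (39.0 CPM per kb, with MMP2 at 34.3), whereas MMP2 stood ahead of it in clone 2 (41.5 against 32.8), so the order of these genes differed between clones.

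The summed MMP level was 1077 CPM per kb in fibroblasts, 567 in iNSLCs and 127 and 146 in the iPSC clones. The summed TIMP level was 997 CPM per kb in fibroblasts, 259 in iNSLCs and 94.4 and 90.1 in the clones. TIMP transcripts per MMP transcript, the quotient of these sums, thus stood at 0.926 in fibroblasts, 0.457 in iNSLCs and 0.745 and 0.618 in the clones. Without TIMP3 the quotient was 0.354 in fibroblasts, 0.418 in iNSLCs and 0.619 and 0.512 in the clones, so the high fibroblast value rested on TIMP3. These quotients describe 4 libraries, with no test.

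**Figure D2:**
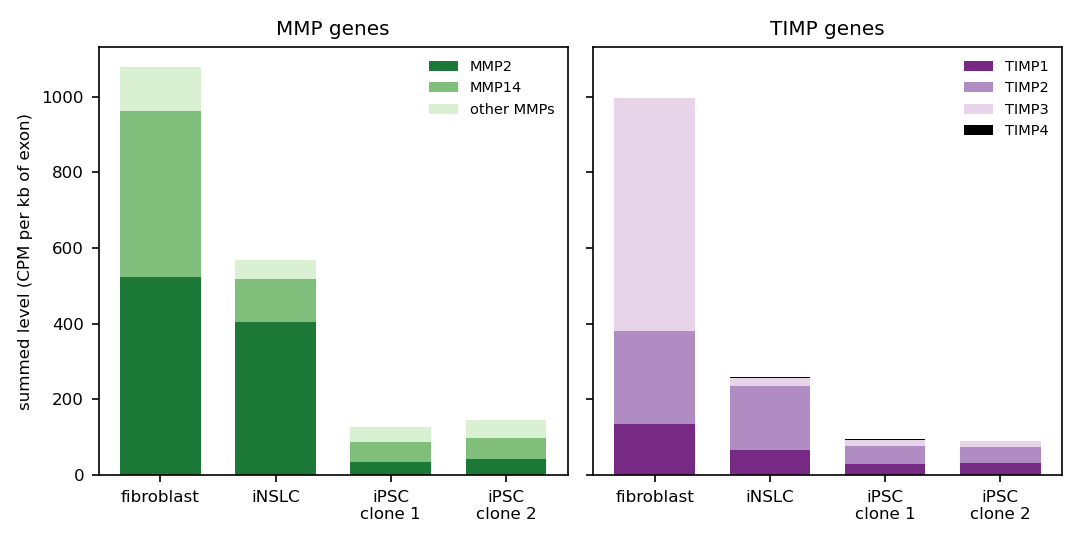
Summed level of the MMP genes (left) and TIMP genes (right) in each library, in CPM per kb of exon, stacked by gene. MMP2 and MMP14 made up most of the MMP sum in fibroblasts and iNSLCs, and TIMP3 took 61.7% of the fibroblast TIMP sum, while TIMP2 led in iNSLCs.

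All 4 TIMPs changed between iPSCs and fibroblasts. TIMP3, which binds to the matrix and also blocks ADAM17 and the aggrecan-cutting ADAMTS enzymes, lies on chromosome 5 (12185819 to 12242604 on Sscrofa11.1, minus strand). It had 73.7 and 71.8 CPM in the iPSC clones against 2848 CPM in fibroblasts, a 39.2-fold lower level (log2 ratio -5.29, SE 0.12, adjusted p = 0.000358, edgeR). The iNSLC library, with 104 CPM, was already 27.5-fold below fibroblasts (26.5 to 28.5 by counting error), so nearly all of the difference was in place at the first step. The further difference between iPSCs and iNSLCs was 1.43-fold (adjusted p = 0.0414). TIMP2, on chromosome 12 (3254494 to 3300831), both inhibits MMPs and helps MMP14 to activate the MMP2 precursor. It followed another course, with 892 CPM in fibroblasts, 605 CPM in iNSLCs and 170.0 and 152 CPM in the clones. Its iPSC level was 5.54-fold below fibroblasts (adjusted p = 0.000608) and 3.76-fold below iNSLCs (adjusted p = 0.00427). TIMP1, a partner of the MMP9 precursor, had 142 CPM in fibroblasts, 71.2 CPM in iNSLCs and 32.3 and 33.2 CPM in the clones. iPSCs were 4.34-fold below fibroblasts (adjusted p = 0.00066) and 2.17-fold below iNSLCs (adjusted p = 0.00851). TIMP4, best known from heart muscle, went the other way. It had 5.91 and 6.30 CPM in the iPSC clones against 2.81 CPM in fibroblasts (adjusted p = 0.025), while the iNSLC library was highest at 12.5 CPM. The rise was not called by DESeq2 (adjusted p = 0.0882).

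**Figure D3:**
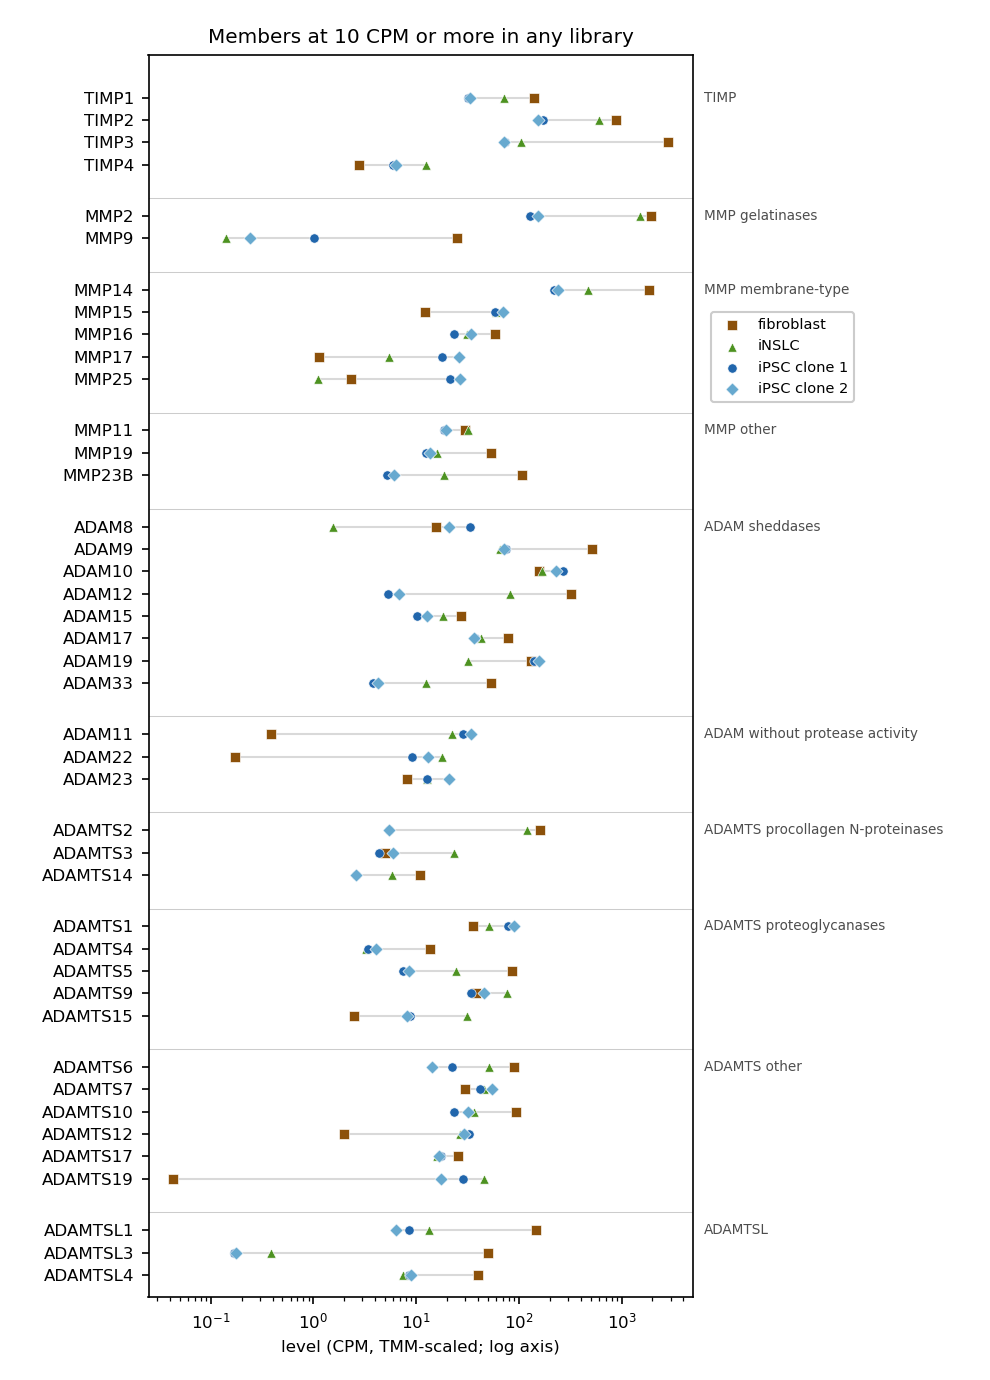
Level of the 42 members that reached 10 CPM in a library, in TMM-scaled CPM on a log axis, by role; each row is a gene and each symbol a library. TIMP3, ADAM12 and ADAMTSL3 show fibroblasts far to the right of the clones, while ADAM11, ADAM22 and ADAMTS19 show fibroblasts far to the left.

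Both gelatinases, which digest denatured collagen and basement membrane collagen, fell against fibroblasts. MMP2 (chromosome 6, 30058595 to 30087031) had 128 and 155 CPM in the iPSC clones against 1953 CPM in fibroblasts, a 13.8-fold lower level (log2 ratio -3.79, SE 0.16, adjusted p = 0.000509). The iNSLC library still held 1511 CPM, and the iPSC level was 10.7-fold below it (adjusted p = 0.003). Between iNSLCs and fibroblasts the direction turned with the scaling, 1.29-fold lower in iNSLCs with TMM and 1.16-fold higher with total counts. The larger part of the MMP2 difference thus lay between iPSCs and iNSLCs, and that of TIMP3 between iNSLCs and fibroblasts. MMP9 had 1.01 and 0.240 CPM in the clones against 24.8 CPM in fibroblasts (adjusted p = 0.00227). The clones differed, and the fold was 39.6 with both, 24.5 with clone 1 alone and 103 with clone 2 alone. In the iNSLC library MMP9 was lower still, at 0.140 CPM.

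The membrane-type MMPs split. MMP14, the main collagenase at the fibroblast surface and the activator of MMP2, lies on chromosome 7 (76174503 to 76186094). It fell to 222 and 241 CPM in the iPSC clones, against 1853 CPM in fibroblasts (8.0-fold, adjusted p = 0.000473) and 472 CPM in iNSLCs (2.04-fold, adjusted p = 0.0113). MMP15, a close relative, rose. It had 58.0 and 69.5 CPM in the clones against 12.1 CPM in fibroblasts (5.26-fold higher, adjusted p = 0.00141), and the iNSLC library with 59.6 CPM already stood at the iPSC level. The GPI-anchored members MMP17 and MMP25 rose against both other groups. MMP17 had 18.0 and 26.0 CPM in the clones against 1.14 CPM in fibroblasts (19.2-fold, adjusted p = 0.00219) and 5.48 CPM in iNSLCs (4.02-fold, adjusted p = 0.0228), and the iNSLC library was itself 4.79-fold above fibroblasts (3.49 to 6.67 by counting error). MMP25, known from leukocytes, had 21.5 and 26.5 CPM in the clones against 2.31 CPM in fibroblasts (10.4-fold, adjusted p = 0.00165) and 1.12 CPM in iNSLCs (21.5-fold, adjusted p = 0.00553). MMP16 had 23.4 and 34.6 CPM in the clones against 59.2 CPM in fibroblasts and 31.5 CPM in iNSLCs. Its fall against fibroblasts (adjusted p = 0.0295) was lost with total counts (adjusted p = 0.186). MMP24, known from the nervous system, was highest in iNSLCs and was called lower in iPSCs than in either other group. The call against fibroblasts was likewise lost with total counts (adjusted p = 0.148).

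The secreted collagenases and matrilysin were weakly expressed at every step. A cluster of MMP genes on chromosome 9 held 7 of the 19 MMP rows: MMP7, MMP20, MMP27, MMP8, MMP1, MMP12 and MMP13, between 33213291 and 33561602 on the minus strand. None of them reached 10 CPM in any library. The MMP1 row, interstitial collagenase, was highest in fibroblasts and called lower in iPSCs (adjusted p = 0.0208). The fold was 8.34 with both clones, 4.79 with clone 1 alone and 32.4 with clone 2 alone. Of the 30 exon entries of that row, 11 lie within the RefSeq span of MMP3 (stromelysin 1), so its counts may include MMP3 reads. MMP13, collagenase 3, was highest in iPSCs and called higher than in iNSLCs (adjusted p = 0.0426), where it had 2 counts. Against fibroblasts it was not called (adjusted p = 0.0597), but it was with total counts (adjusted p = 0.0214). MMP27 was found in a single library. It had 201 counts (7.02 CPM) in iNSLCs and 0 counts in fibroblasts and both iPSC clones, at least 73.0-fold lower in iPSCs than in iNSLCs (adjusted p = 0.0125). MMP7, MMP8, MMP12 and MMP20 stayed under 1 CPM everywhere. Neighbours in the cluster therefore had their highest levels in different libraries.

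Of the remaining MMPs, MMP23B and MMP19 fell most. MMP23B had 5.15 and 6.12 CPM in the clones against 108 CPM in fibroblasts (19.2-fold, adjusted p = 0.000461) and 18.8 CPM in iNSLCs (3.34-fold, adjusted p = 0.00838). MMP19 had 12.5 and 13.6 CPM in the clones against 53.0 CPM in fibroblasts (4.07-fold, adjusted p = 0.0013), and the iNSLC library had 15.8 CPM. An unnamed gene on the opposite strand covers 43.7% of the MMP19 exon bases, and the sources used here do not say if counting was stranded. MMP11, which furin activates inside the cell, varied little, with 29.9 CPM in fibroblasts, 32.2 CPM in iNSLCs and 18.7 and 19.6 CPM in the clones. Its call against fibroblasts (adjusted p = 0.0232) was lost with total counts (adjusted p = 0.731). Against iNSLCs it was called 1.68-fold lower in iPSCs (adjusted p = 0.0323, edgeR, but 0.0786 by DESeq2). MMP28, epilysin, was highest in fibroblasts at 2.70 CPM and had 0 counts in iNSLCs, and iPSCs were at least 15.6-fold above iNSLCs (adjusted p = 0.0224).

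Of the 9 ADAM sheddases, 5 fell against fibroblasts and 1 rose. ADAM10, which starts Notch cleavage, was the one that rose. It had 272 and 228 CPM in the clones against 156 CPM in fibroblasts (1.61-fold, adjusted p = 0.0207), with 169 CPM in iNSLCs. Without the filter on low counts the rise was not called (adjusted p = 0.0565). ADAM17, which releases TNF and several EGF receptor ligands, had 37.5 and 36.2 CPM in the clones against 78.4 CPM in fibroblasts (2.13-fold lower, adjusted p = 0.00313) and 42.6 CPM in iNSLCs. IAH1 on the opposite strand overlaps 51.0% of the ADAM17 exon bases, so part of those reads could belong to IAH1. The ADAM9 level stood at 74.8 and 71.3 CPM in the clones against 514 CPM in fibroblasts (7.03-fold lower, adjusted p = 0.000442). Like TIMP3, it was already low in iNSLCs, at 65.7 CPM. ADAM12, meltrin alpha, fell further, to 5.36 and 6.75 CPM in the clones, against 319 CPM in fibroblasts (52.6-fold, log2 ratio -5.70, SE 0.17, adjusted p = 0.000396) and 82.8 CPM in iNSLCs (13.7-fold, adjusted p = 0.00266). ADAM33 and ADAM15 also fell against fibroblasts. ADAM33 had 3.8 and 4.26 CPM in the clones against 53.2 CPM in fibroblasts and 12.5 CPM in iNSLCs. ADAM15 had 10.2 and 12.7 CPM in the clones against 27.1 CPM in fibroblasts and 18.2 CPM in iNSLCs.

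ADAM19 and ADAM8 had a dip in the iNSLC library in common. ADAM19, meltrin beta, had 140.0 and 157 CPM in the iPSC clones against 31.7 CPM in iNSLCs (4.68-fold, adjusted p = 0.00447). The fibroblast level of 130.0 CPM was close to that of the clones (log2 ratio 0.19, SE 0.13, adjusted p = 0.255), but with total counts ADAM19 was called higher in iPSCs (adjusted p = 0.00807). ADAM8, known from immune cells, had 33.1 and 21.0 CPM in the clones against 1.54 CPM in iNSLCs (17.6-fold, adjusted p = 0.0109) and 15.5 CPM in fibroblasts. The comparison with fibroblasts missed the threshold (adjusted p = 0.109) and passed it with total counts (adjusted p = 0.019). ADAM28 was highest in iNSLCs and was called lower in iPSCs than there (adjusted p = 0.0343).

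The ADAMs that lack protease activity included 2 clear gains. ADAM11, expressed in brain, had 28.9 and 33.9 CPM in the clones against 0.389 CPM in fibroblasts (80.8-fold higher, log2 ratio 6.33, SE 0.31, adjusted p = 0.000611), with 22.4 CPM in iNSLCs. ADAM22, a neuronal receptor for LGI1, had 9.21 and 13.0 CPM in the clones against 0.173 CPM in fibroblasts (64.4-fold higher, adjusted p = 0.00194), and the iNSLC library had 17.7 CPM. ADAM23, a second LGI1 receptor, had 12.7 and 21.1 CPM in the clones against 8.08 CPM in fibroblasts and 12.7 CPM in iNSLCs. It was not called against fibroblasts (adjusted p = 0.0671) except with total counts (adjusted p = 0.0159). None of these 3 genes was called between iPSCs and iNSLCs. Among 7 ADAMs associated with testis and epididymis, 5 were too weak to test (ADAM18, ADAM20, ADAM21, ADAM30 and ADAM32), and ADAM20 and ADAM30 had no count at all. ADAM7 was highest in iNSLCs and called lower in iPSCs than there (adjusted p = 0.0284). ADAM3A reached 1.05 CPM in iPSC clone 2 and had 0 counts in fibroblasts, against which iPSCs were at least 13.0-fold higher (adjusted p = 0.017).

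The procollagen N-proteinases, which trim fibrillar procollagens, did not move together. ADAMTS2 (chromosome 2, 79182949 to 79406875) had 5.41 and 5.49 CPM in the clones against 159 CPM in fibroblasts (29.2-fold lower, log2 ratio -4.87, SE 0.12, adjusted p = 0.000358) and 120.0 CPM in iNSLCs (22.1-fold lower, adjusted p = 0.00159). COL1A1, whose product it trims, had 447 and 401 CPM in the clones against 64550 CPM in fibroblasts and 21579 CPM in iNSLCs. ADAMTS14 had 2.62 and 2.60 CPM in the clones against 11.0 CPM in fibroblasts and 5.79 CPM in iNSLCs, and was called lower against both, though not by DESeq2 against iNSLCs (adjusted p = 0.178). ADAMTS3, which also processes VEGF-C, behaved otherwise. It had 4.39 and 5.95 CPM in the clones against 4.97 CPM in fibroblasts (adjusted p = 0.814), but 23.6 CPM in iNSLCs (4.56-fold lower in iPSCs, adjusted p = 0.0117).

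The proteoglycan-cutting ADAMTS enzymes moved in both directions. ADAMTS1 and ADAMTS5 are neighbours on chromosome 13, at 190273999 to 190285720 and 190357960 to 190411953, both on the minus strand. ADAMTS1, which cuts versican, had 78.3 and 90.6 CPM in the clones against 35.7 CPM in fibroblasts (2.37-fold higher, adjusted p = 0.00425) and 51.0 CPM in iNSLCs (1.66-fold higher, adjusted p = 0.0345). ADAMTS5, the main aggrecanase of mouse cartilage, had 7.52 and 8.59 CPM in the clones against 85.5 CPM in fibroblasts (10.6-fold lower, adjusted p = 0.000545) and 24.6 CPM in iNSLCs (3.05-fold lower, adjusted p = 0.00849). The adjacent genes thus changed in opposite directions in both comparisons. ADAMTS4, the other principal aggrecanase, had 3.38 and 4.09 CPM in the clones against 13.8 CPM in fibroblasts (3.70-fold lower, adjusted p = 0.00526) and 3.25 CPM in iNSLCs. ADAMTS9 had 34.1 and 46.2 CPM in the clones against 38.7 CPM in fibroblasts and 76.4 CPM in iNSLCs, and only the fall against iNSLCs was called (adjusted p = 0.0444). ADAMTS15 and ADAMTS8 are also neighbours, on chromosome 9. ADAMTS15 had 8.78 and 8.15 CPM in the clones against 2.46 CPM in fibroblasts (3.44-fold higher, adjusted p = 0.00509) and 31.6 CPM in iNSLCs (3.73-fold lower, adjusted p = 0.00835). ADAMTS8 was highest in iPSCs and called higher than in fibroblasts (adjusted p = 0.0317, but 0.0533 by DESeq2). ADAMTS20 was highest in fibroblasts and called lower in iPSCs (adjusted p = 0.0066).

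Of the remaining ADAMTS genes, ADAMTS19 and ADAMTS12 were gained. ADAMTS19 (chromosome 2, 132144862 to 132409660), linked to heart valve development, had 28.3 and 17.5 CPM in the iPSC clones and 2 counts (0.0432 CPM) in fibroblasts. The ratio of pooled counts was 491 (136 to 4054 by counting error, adjusted p = 0.00173, edgeR). The iNSLC library was highest, at 45.9 CPM. ADAMTS12, which cuts cartilage oligomeric matrix protein, had 32.4 and 29.5 CPM in the clones against 1.99 CPM in fibroblasts (15.6-fold higher, adjusted p = 0.000723) and 26.8 CPM in iNSLCs. Its relative ADAMTS7 had 42.0 and 55.0 CPM in the clones against 29.6 CPM in fibroblasts (1.64-fold higher, adjusted p = 0.045, but 0.0861 without the filter on low counts) and 45.3 CPM in iNSLCs. ADAMTS18 was highest in iPSCs, at least 29.0-fold above fibroblasts, which had 0 counts (adjusted p = 0.00512).

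ADAMTS10, ADAMTS6 and ADAMTS17 act on or near fibrillin microfibrils and were lower in iPSCs than in fibroblasts, the last not under every setting. ADAMTS10 had 23.2 and 32.0 CPM in the clones against 93.0 CPM in fibroblasts (3.37-fold lower, adjusted p = 0.00435) and 36.6 CPM in iNSLCs. ADAMTS6, its closest relative, had 22.4 and 14.4 CPM in the clones against 90.7 CPM in fibroblasts (4.93-fold lower, adjusted p = 0.00386) and 50.8 CPM in iNSLCs (2.76-fold lower, adjusted p = 0.0292). ADAMTS17 changed least, with 17.6 and 16.7 CPM in the clones against 25.6 CPM in fibroblasts and 15.8 CPM in iNSLCs. Its call against fibroblasts (adjusted p = 0.0386) was lost with total counts (adjusted p = 0.963) and with DESeq2 (adjusted p = 0.163), and its relative ADAMTS19 was among the genes that rose. ADAMTS16 was highest in iNSLCs, and its fall in iPSCs against iNSLCs (adjusted p = 0.027) was 8.82-fold with both clones, 19.6-fold with clone 1 alone and 5.69-fold with clone 2 alone. ADAMTS13, which cuts von Willebrand factor, stayed under 1 CPM, and CACFD1 on the same strand overlaps 56.0% of its exon bases.

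The ADAMTS-like proteins have no catalytic domain and bind matrix and microfibrils. In iPSCs 4 of the 5 genes fell against fibroblasts. ADAMTSL3 fell furthest of the tested members, with 0.169 and 0.175 CPM in the clones (4 and 8 counts) against 50.2 CPM in fibroblasts (292-fold lower, log2 ratio -8.15, SE 0.28, adjusted p = 0.000402). It was already at 0.384 CPM in iNSLCs. ADAMTSL1 had 8.45 and 6.36 CPM in the clones against 147 CPM in fibroblasts (19.8-fold lower, adjusted p = 0.000554) and 13.4 CPM in iNSLCs (adjusted p = 0.0496). ADAMTSL4, which binds fibrillin in the eye, had 8.61 and 8.98 CPM in the clones against 40.2 CPM in fibroblasts (4.57-fold lower, adjusted p = 0.00134) and 7.47 CPM in iNSLCs. ADAMTSL5 was highest in fibroblasts and called lower in iPSCs (adjusted p = 0.00256). ADAMTSL2 was highest in iPSCs and was called in neither comparison (adjusted p = 0.0784 against fibroblasts and 0.0501 against iNSLCs), but with total counts it was called higher in both (adjusted p = 0.0249 against fibroblasts and 0.0479 against iNSLCs).

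The first step, iNSLCs against fibroblasts, had 1 library a side and was described by size alone, as a ratio of at least 4-fold with at least 10 CPM in the higher library. Of 40 members at that level, 11 (27.5%) were lower in iNSLCs and 8 (20%) were higher. Over all genes 8.88% were lower and 9.2% were higher by this rule. The 8 higher members were ADAM11, ADAM22, ADAMTS3, ADAMTS12, ADAMTS15, ADAMTS19, MMP15 and TIMP4. ADAMTS19 showed the largest ratio, 1063 (294 to 8790 by counting error, against 2 fibroblast counts). The 11 lower members were TIMP3, MMP9, MMP23B, ADAM8, ADAM9, ADAM19, ADAM33, ADAMTS4, ADAMTSL1, ADAMTSL3 and ADAMTSL4. With total counts 6 of these 11 stayed past 4-fold, and MMP23B, ADAM19, ADAM33, ADAMTS4 and ADAMTSL4 did not. MMP14 (3.92-fold lower) and ADAM12 (3.85-fold lower) lay just short of the limit.

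The iNSLC library had the highest level in 12 of the 56 members that reached 1 CPM. Among those at 10 CPM or more the share was 16.7%, against 22.1% of all genes at that level, so the members were no richer in this pattern. The 12 were ADAMTS9, ADAMTS19, MMP11, ADAMTS15, ADAMTS3, ADAM22, TIMP4, ADAMTS16, MMP27, MMP24, ADAM28 and ADAM7, in order of iNSLC CPM. With total counts, ADAM15, ADAM3A, ADAMTS2, MMP2 and TIMP2 joined them, 17 in all. As these genes were picked for a high iNSLC level, their difference from iPSCs is a description here.

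**Figure D4:**
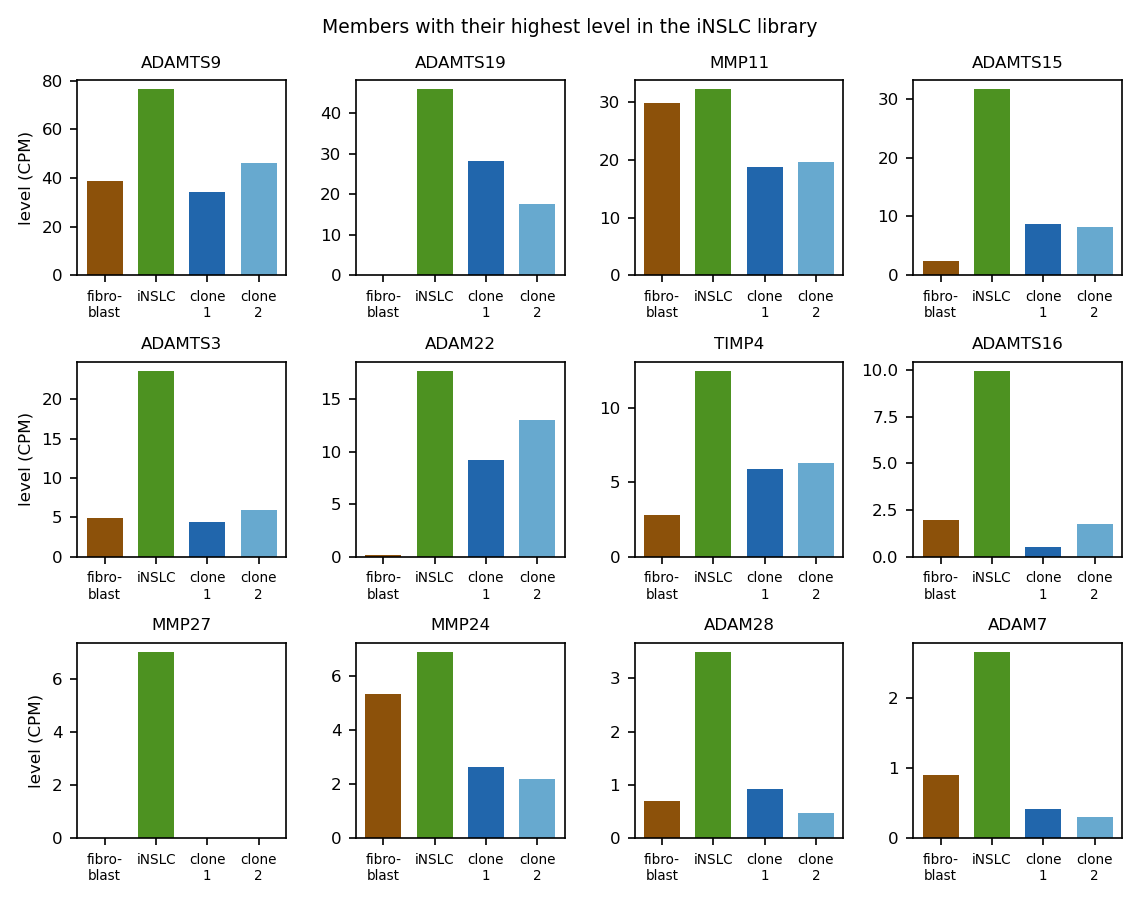
Level in TMM-scaled CPM of the 12 members at 1 CPM or more whose highest library was the iNSLC library; bars are single libraries (fibroblast, iNSLC, iPSC clones 1 and 2), and each panel has its own scale from 0. MMP27 has a bar in iNSLCs only, and ADAMTS19 and ADAM22 keep tall bars in both clones.

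Between the iPSC clones, 0 of 28 members at 10 CPM or more in either clone differed 2-fold or more. Of all genes at that level 1.5% did, so a count of 0 among 28 says nothing particular to the members. Below that level, MMP1 was 6.76-fold lower in clone 2 than in clone 1 (28 and 8 counts in clones 1 and 2), and MMP9 was 4.22-fold lower (24 and 11 counts). ADAMTS16 went the other way, 3.45-fold higher in clone 2 (12 and 80 counts).

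The partners of these enzymes were read from lists of genes, tested in the same fits. Their counts against fibroblasts are to be read beside the 29.6% of all tested genes that rose and the 28.2% that fell, and the lists are small. Among 9 proprotein convertases, which activate MMP and ADAM precursors, 3 rose and 5 fell in iPSCs against fibroblasts. FURIN had 362 and 313 CPM in the clones against 144 CPM in fibroblasts (2.34-fold higher, adjusted p = 0.00372), and PCSK6 was 18.6-fold lower (adjusted p = 0.000509). Of 9 tested genes of the plasminogen system, another activator of MMPs, 7 fell against fibroblasts and 1, PLAT, rose. PLAU, urokinase, was 18.1-fold lower (adjusted p = 0.00258). Against iNSLCs, 7 of the 9 rose in iPSCs, where 13.2% of all tested genes rose.

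Of 11 tested genes for other inhibitors and clearance receptors, 7 rose and 3 fell against fibroblasts, where 29.6% of all tested genes rose and 28.2% fell. The Kunitz inhibitors SPINT1 and SPINT2 were 90.9-fold (adjusted p = 0.000864) and 31.6-fold (adjusted p = 0.00677) higher. Their target ST14, the epithelial serine protease matriptase, had 5783 and 9156 counts in the clones against 22 counts in fibroblasts (468-fold higher, scaled, adjusted p = 0.000402). In the list of astacins and further matrix proteases that holds ST14, 3 of 17 tested genes rose and 10 fell. FAP (276-fold) and DPP4 (228-fold), both surface proteases of fibroblasts, were among those that fell, and FAP is also one of the fibroblast markers.

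Partners and substrates of the sheddases changed unevenly. Of 14 ADAM10 and ADAM17 partners, 2 rose and 7 fell against fibroblasts. TSPAN15, which directs ADAM10 to N-cadherin, was 16.1-fold higher in iPSCs (adjusted p = 0.000701), and TSPAN10, another ADAM10 partner, was 24.7-fold lower (adjusted p = 0.00163). Among 6 measured EGF receptor ligands that these enzymes release, TGFA and HBEGF rose and AREG and EREG fell. TGFA had 29.2 CPM in each clone against 2 counts in fibroblasts. Of 9 genes for proteoglycans, fibrillins and other matrix proteins, listed as substrates of the ADAMTS enzymes, 4 rose and 5 fell against fibroblasts. The genes of the other matrix proteins were all among those that fell. FBN1 was 58.9-fold lower (adjusted p = 0.000442), and FBN2, the embryonic fibrillin, was 89.4-fold higher (adjusted p = 0.000449). NCAN, the proteoglycan neurocan of nervous tissue, had 55.1 and 64.5 CPM in the clones, 84.1 CPM in iNSLCs and 0 counts in fibroblasts. In bulk RNA, fewer cells of a type and less RNA per cell cannot be told apart, and this holds for each level given here.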

How the data were processed

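RNA of 4 porcine cultures was analysed. The authors deposited whole-number read counts per gene, not normalized. The submitters' processing notes name Trim Galore 0.4.0, STAR 2.5.3a, featureCounts 1.5.2 and the Sscrofa11.1 assembly. The sources used here do not give the strand setting. Reads of genes that overlap cannot be told apart, and reads of near-identical copies may be shared or lost.

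Symbols came from the Ensembl identifier (14857 genes) or from a single RefSeq gene of the same assembly that overlapped by at least 80% (1334 genes). In the genes with both names, 95.3% were the same. Rows at other loci of these families that stayed unnamed were not counted.

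Counts were fitted with edgeR 4.0.16 (limma 3.58.1, R 4.3.3; TMM, filterByExpr, quasi-likelihood F test, Benjamini-Hochberg over 15739 genes, common biological coefficient of variation 0.198). TMM factors were 0.742 (fibroblast), 1.11 (iNSLC), 1.09 (clone 1) and 1.11 (clone 2). Folds raise each library to at least 3 counts, and "at least" marks a fold against 0 counts. Against 1 to 3 counts, ratios use pooled, unraised counts. Ratios of 2 libraries have 95% exact conditional binomial intervals, which cover counting error only. Alternatives were RLE and total-count scaling, DESeq2 1.42.0, other filters, a floor of 1 count, names by identifier alone and leaving out each clone. edgeR with unadjusted deviances, and the highest library by total counts, were added after seeing the data.

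Every member at 10 CPM or more in any library is given with its level in each, those from 1 to 10 CPM with their highest library and call, and those under 1 CPM by name. Genes of the partner lists were named by the size of their ratio, among those at 10 CPM or more; 1 gene of these lists is not reported here. The members and lists were chosen with earlier results of these data known.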

Additional observations from a re-analysis of the deposited data

How the results depend on the processing

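The comparison of iPSCs with fibroblasts kept its balance of 30 lower and 15 higher members under RLE scaling (30 and 15), DESeq2 (26 and 13), no filter on low counts (30 and 12), a filter of 1 CPM (29 and 15), unadjusted deviances (29 and 15) and names by identifier alone (29 and 15). With total counts, 26 were lower and 20 higher, and the median log2 ratio of the tested members was -0.15 instead of -0.72. The median over all tested genes was then 0.68 instead of 0.11. Leaving out a clone set that median between -1.03 and -0.78, and the median against iNSLCs between -0.43 (without clone 2) and -0.26. Against iNSLCs, 13 members were called lower without the filter on low counts and 17 with DESeq2, instead of 23. By size, 6 members were lower in iNSLCs than in fibroblasts with total counts, 16 at 2-fold or more, and 15 at 1 CPM or more, instead of 11. With total counts the 8 higher members all stayed past 4-fold, and ADAMTS16 (7.5-fold) joined them. Shares of all genes are not given beside the counts of members under these settings. The causes of these shifts were not tested. No named member called in either comparison changed direction. DESeq2 dropped the calls of TIMP4, MMP11 and MMP24 in both comparisons, of ADAMTS8 and ADAMTS17 against fibroblasts, and of ADAM7, ADAM28, ADAMTS14 and MMP13 against iNSLCs. Without the filter on low counts, the calls of TIMP3, TIMP4, ADAMTS1, ADAMTS6, ADAMTS9, ADAMTS16 and ADAMTSL1 against iNSLCs, among others, had adjusted p (edgeR) from 0.0506 to 0.0902. The MMP1 log2 ratio without clone 1 was -5.02 against fibroblasts, with no test, and its uncalled ratio against iNSLCs changed sign. No paired analysis was possible because the fibroblast and iNSLC groups each had a single library, and all libraries came from the same animal. The lone fibroblast and iNSLC libraries leave their own spread unmeasured, and weak genes were least precise in clone 1, which had the fewest counts.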
